A study of Mus musculus with 108 samples.

Results

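A set of 10 genes of the p53 pathway and of the oocyte response to DNA damage was followed through mouse oocytes with and without Exosc10. They are Trp53 and Trp63 (transcription factors), Mdm2 and Mdm4 (inhibitors of p53), Cdkn1a, Ccng1, Bbc3 and Bax (targets) and Chek1 and Chek2 (checkpoint kinases). The genes were chosen by symbol, and all 10 were present among the 55573 gene IDs of the count tables. Exosc10 encodes the nuclear catalytic subunit of the RNA exosome, which trims and degrades nuclear RNA. Each library held the RNA of 1 oocyte, and each oocyte came from a named female, so females were taken as the replicates. In the knockout (cKO) Exosc10 was deleted in oocytes only, and the comparison females are labelled control (ctr). The deletion's driver line, the strain and the females' ages are not given in the sources used here.

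Oocytes with an intact nucleus, or germinal vesicle (GV), and oocytes after 3 h were cultured in M2 medium. Eggs arrested at metaphase II (MII) were taken from oviducts. Libraries primed on poly(A) covered all 3 stages. For GV they held 15 cKO oocytes of 2 females and 7 ctr oocytes of 2 females. At GV3h, the 3 h stage, they held 11 cKO and 8 ctr oocytes, each from 3 females. At MII they held 15 cKO and 8 ctr eggs, again from 3 females each. RiboMinus libraries, primed with random hexamers and so not dependent on a poly(A) tail, held 7 cKO and 8 ctr GV oocytes from 2 females each, 4 cKO MII eggs of 2 females and 3 ctr MII eggs of 1 female (V1145). In every comparison with the RiboMinus ctr MII eggs, genotype or stage cannot be told apart from that female.

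p53, encoded by Trp53, is held low by Mdm2, which marks it for degradation, and by Mdm4, which binds and inhibits it. After DNA damage, kinases such as Chek1 and Chek2 act on p53, and p53 then activates genes for cell cycle arrest (Cdkn1a), feedback (Mdm2, Ccng1) and cell death (Bbc3, Bax). In oocytes of the resting pool a form of p63, from Trp63, is the main guardian against DNA damage, and Chek2 and casein kinase 1 switch it on. The transcripts of these genes say nothing of the proteins' modification, which carries most of this response.

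The promoters are shown because p53 acts on its targets through such sequences. Of these windows only 1 of Cdkn1a held paired decamers that matched exactly, while its transcript was among the lowest measured here. RefSeq windows from 250 bases before to 50 bases after the start site (GRCm38.p6) were held for 9 of the 10 genes, as 13 windows. The p53 consensus decamer, which reads the same on both strands, was present in 5 of the 13 windows and in 2745 of all 32851 windows (8.36%). A complete response element has the form of a pair of decamers with at most 13 bases between them. Such a pair, with both decamers exact, was present in 1 window of these genes, that of Cdkn1a. It was present in 24 of all windows (0.0731%). The runs below are written 5′ to 3′ on the gene's strand, with the decamers in capitals. The Cdkn1a run is chr17:29090879-29090978 (+), the 100 bases before the start site, with 12 bases between its exact decamers. The others are chr11:69580274-69580303 (+) for Trp53, chr10:117710925-117710954 (-) for Mdm2, chr11:40755452-40755481 (-) for Ccng1 and chr7:45467080-45467109 (-) for Bax. The second Cdkn1a window held no exact decamer. Stretches that differ from the decamer by 1 base were not marked or counted. Such a stretch directly precedes the marked decamer of Ccng1 and directly follows the later marked one of Cdkn1a. A match describes letters and not binding, and elements outside these windows, such as those within introns, were not searched.
Cdkn1a: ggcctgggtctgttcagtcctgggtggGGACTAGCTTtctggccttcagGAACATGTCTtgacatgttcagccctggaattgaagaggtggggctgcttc
Trp53: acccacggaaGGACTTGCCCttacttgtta
Mdm2: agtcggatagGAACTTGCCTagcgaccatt
Ccng1: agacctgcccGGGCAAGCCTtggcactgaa
Bax: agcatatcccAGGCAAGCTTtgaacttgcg

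Reads counted to genes ranged from 4638718 to 8735914 per polyA library and from 12319658 to 62675760 per RiboMinus library. Levels are given as CPM, read counts scaled to a common library size with TMM factors, and each female's value is that of her summed oocytes. Exosc10 was 0.0799 to 2.04 CPM in the 8 polyA cKO females and 46.0 to 144 CPM in the 8 ctr females, and in RiboMinus it was 1.20 to 3.71 CPM in cKO and 100.5 to 140.1 CPM in ctr. The 15 listed oocyte markers summed to 22060 CPM or more in each polyA library and to 8655 CPM or more in each RiboMinus library. The spike-in RNA that the labels describe has no rows in the tables used here, so each difference below is relative to the other RNA of the same library.

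Among these genes the levels per length in ctr polyA GV oocytes ran from 136 CPM per kb of exon for Chek1 and 132 for Mdm4 to 0.202 for Cdkn1a and 0.0247 for Bbc3. Mdm2 (25.5 CPM per kb), Bax (13.7) and Trp53 (6.002) lay between, followed by Trp63 (2.24), Chek2 (1.5) and Ccng1 (0.915). In RiboMinus ctr GV oocytes Mdm4 (170 CPM per kb) and Chek1 (119) again stood above the rest, and Trp63 (8.78) lay above Trp53 (8.13). In ctr GV oocytes Chek1, Mdm4 and Mdm2 were thus the 3 highest of the genes per length in both kinds of library.

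After 3 h, 5 of the 9 genes tested passed an adjusted p of 0.05 between cKO and ctr in polyA RNA (edgeR quasi-likelihood test, Benjamini-Hochberg over all genes). Trp63, Ccng1 and Chek2 were higher in cKO, and Mdm2 and Mdm4 were lower. Of all genes tested in that comparison, 25.2% passed. At GV 1 of 9 passed (Trp63, higher), beside 7.38% of all genes, and at MII 3 of 9 passed (Ccng1 and Chek2 higher, Mdm4 lower), beside 18.9%. In RiboMinus RNA none of 9 passed at GV with edgeR, beside 0.0315% of all genes, while 2 of the 9 had an unadjusted p under 0.05. At the same stage 1 passed with limma voom and none with DESeq2. In RiboMinus MII eggs 3 of 9 passed (Trp53, Cdkn1a and Ccng1, all higher), beside 7.30%. Bbc3 had too few counts to be tested. Read by direction, the calls over all genes in polyA RNA were 3.47% higher and 3.91% lower at GV. For GV3h they were 12.5% and 12.7%, and for MII 11.9% and 6.99%. In RiboMinus RNA they were 0.0275% and 0.00393% at GV, and 3.61% and 3.69% at MII. The females of both genotypes did not overlap for 52.1% of all genes at polyA GV, for 51.4% at GV3h and for 32.8% at MII, and for 56.6% and 71.5% in RiboMinus GV and MII. A lack of overlap between females is thus common in these small groups. For single oocytes such a share over all genes was not computed. Oocytes of 1 female are not independent, so counts of oocytes that lie apart between groups are given only as a description. The 9 genes had a median log2 difference of 0.76 (GV), 0.60 (GV3h) and 0.33 (MII) in polyA RNA, and 0.32 and 0.44 in RiboMinus RNA at GV and MII. Over all genes tested it was 0.08, 0.07, 0.12, 0.04 and 0.25. The median of the 9 genes is the value of 1 of them, at polyA GV that of Cdkn1a (0.76 ± 0.66 SE). It also mixes genes that were higher with genes that were lower.

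**Figure D1:**
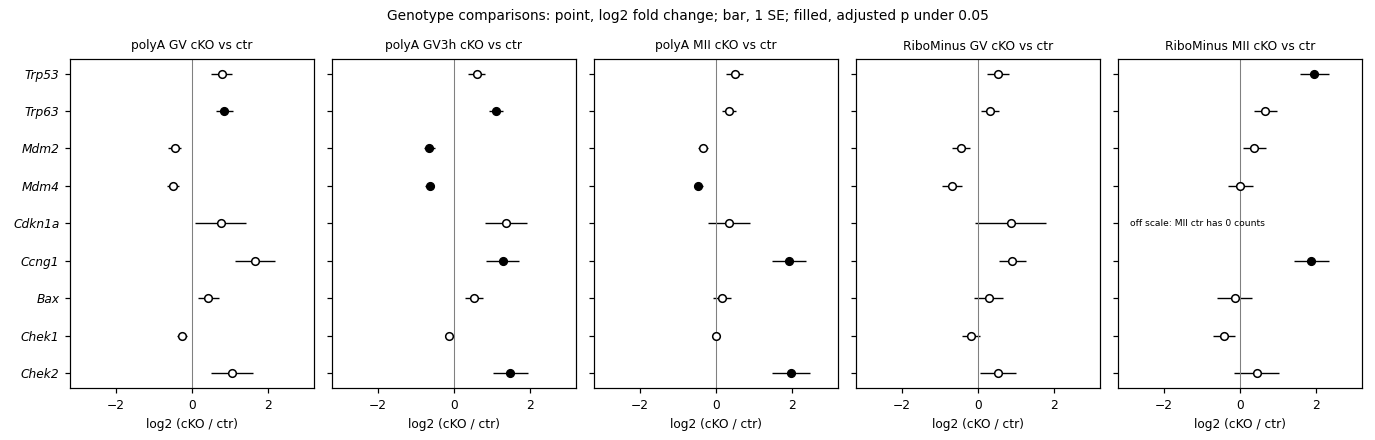
Log2 fold change of cKO over ctr for the 9 tested genes in the 5 genotype comparisons; points are edgeR estimates from counts summed per female, bars are 1 SE, and filled points passed an adjusted p of 0.05. Mdm2 and Mdm4 lie left of 0 in the 3 polyA panels, Trp53, Trp63, Ccng1 and Chek2 lie right of 0 in all 5, and Cdkn1a in RiboMinus MII is off the axis because ctr held 0 counts.

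Trp53, on mm10 chr11:69580359-69591873 (+), was higher in cKO in each comparison, but in polyA RNA the difference missed the threshold. Its polyA level at GV was 30.1 and 53.3 CPM in the cKO females and 21.9 and 26.7 CPM in the ctr females. After 3 h it was 37.9, 35.8 and 46.5 CPM in cKO and 27.7, 25.5 and 26.3 CPM in ctr. At MII it was 62.6, 81.1 and 102.5 CPM in cKO and 60.8, 63.4 and 50.5 CPM in ctr. The females' ranges were apart at GV and GV3h and overlapped at MII, where cKO female V841 lay below ctr female V853. Its log2 differences were 0.78 ± 0.27 (SE), 0.60 ± 0.22 and 0.50 ± 0.22, with adjusted p of 0.0896, 0.0596 and 0.124 in edgeR. In single oocytes 11 of 15 cKO oocytes at GV, 10 of 11 at GV3h and 12 of 15 at MII exceeded the highest ctr oocyte. Most of them came from V888 at GV and from V897 at MII. The sums of V857 (30.1 CPM) and V841 (62.6 CPM) lay below the highest ctr oocyte of their stage (35.4 and 71.4 CPM). That of V842 (81.1 CPM) lay above it. At GV3h the Trp53 difference passed under all 7 alternatives that kept every female, with adjusted p from 0.000164 (oocytes as replicates) to 0.0472 (DESeq2 size factors). For GV it passed with DESeq2 (adjusted p = 0.0331), library totals (0.0345), no filter (0.0467), limma voom (0.00978) and oocytes as replicates (0.00223). For MII it passed with limma voom (0.00985) and oocytes as replicates (0.000168).

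In RiboMinus GV oocytes Trp53 was 48.1 and 46.8 CPM in cKO against 32.2 and 33.6 CPM in ctr (log2 difference 0.53 ± 0.28 SE, adjusted p = 0.424, edgeR). In RiboMinus MII eggs it was 90.3 and 76.3 CPM in the eggs of cKO female V1166, 55.9 and 50.7 CPM in those of V1167, and 15.8, 19.9 and 15.2 CPM in the ctr eggs of V1145. All 4 cKO eggs lay above all 3 ctr eggs. As V1145 was the only ctr female, no alternative could leave her out. The Trp53 log2 difference was 1.95 ± 0.38 (SE, adjusted p = 0.0261, edgeR), a 3.88-fold higher level, and it passed under all 10 alternatives run, with a range of 1.60 to 2.25.

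Trp63, on chr16:25683763-25892102 (+), was higher in cKO and passed at GV and GV3h in polyA RNA. Its level at GV3h was 35.3, 29.1 and 33.1 CPM in the cKO females and 13.1, 16.9 and 15.0 CPM in the ctr females. Every cKO oocyte (22.6 to 45.0 CPM, median 34.6) lay above every ctr oocyte (10.3 to 17.8 CPM, median 15.8). The Trp63 difference was 2.16-fold (log2 1.11 ± 0.19 SE, adjusted p = 0.000671, edgeR) and passed under all 13 alternatives. At GV it was 35.2 and 32.6 CPM in cKO and 20.02 and 17.63 CPM in ctr, and 14 of 15 cKO oocytes exceeded the highest ctr oocyte. That difference was 1.80-fold (log2 0.85 ± 0.23 SE, adjusted p = 0.0333, edgeR). The GV call ended without any single female: the adjusted p became 0.130 without V857, 0.0510 without V888, 0.121 without V856 and 0.267 without V889. It was 0.193 with only these 2 groups in the fit and 0.0940 with no filter on low counts.

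At MII Trp63 was 26.5, 27.0 and 32.4 CPM in cKO and 26.2, 22.6 and 19.5 CPM in ctr, so the females' ranges nearly touched (log2 difference 0.33 ± 0.18 SE, adjusted p = 0.224, edgeR). RiboMinus levels of Trp63 were higher than the polyA levels in every GV female. At GV they were 90.2 and 93.5 CPM in cKO and 73.6 and 73.8 CPM in ctr (log2 difference 0.32 ± 0.24 SE, adjusted p = 0.573). At MII they were 53.04 and 72.65 CPM in cKO and 39.7 CPM in ctr (0.66 ± 0.30, adjusted p = 0.190). The polyA genotype difference at MII was tested against that at GV as an interaction. For Trp63 it was -0.52 ± 0.29 (SE, log2, adjusted p = 0.400), so a difference between these stages was not shown. The GV3h difference was not tested against that at MII.

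**Figure D2:**
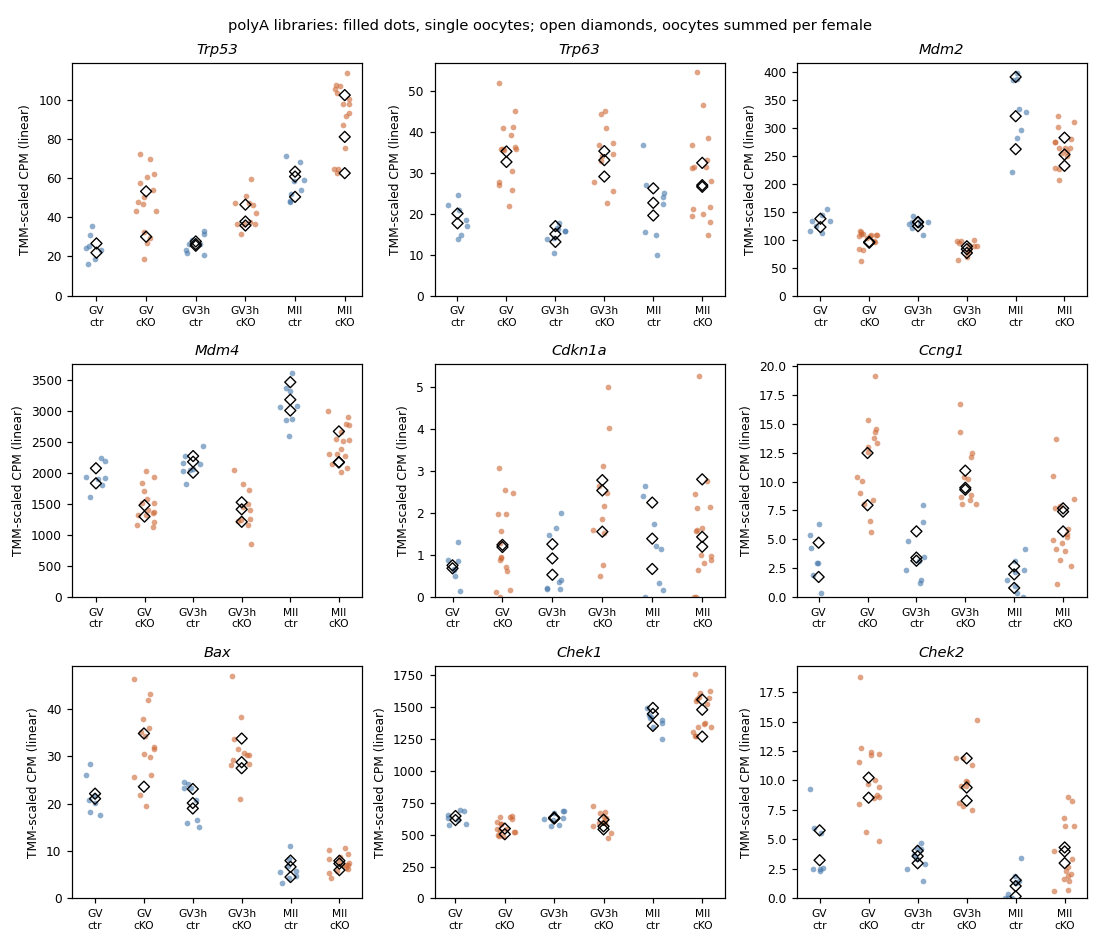
TMM-scaled CPM (linear axes from 0) of 9 genes in polyA libraries of the 6 groups; filled dots are single oocytes (blue ctr, orange cKO) and open diamonds are oocytes summed per female. Trp63 at GV3h and Mdm2 at GV3h show cKO and ctr oocytes fully apart, and Chek1, Mdm2 and Mdm4 are highest at MII while Bax is lowest there.

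Mdm2, on chr10:117688875-117710758 (-), was lower in cKO than in ctr after 3 h. Its level was 82.8, 88.0 and 76.2 CPM in the cKO females and 130.8, 131.5 and 124 CPM in the ctr females. All 11 cKO oocytes (63.3 to 98.9 CPM, median 89.0) lay below all 8 ctr oocytes (107.6 to 141.9 CPM, median 130.1). Mdm2 fell by 0.65 ± 0.14 (SE, log2, adjusted p = 0.00352, edgeR), so that ctr was 1.56-fold higher, and the call was kept under all 13 alternatives. At GV it was 94.4 and 96.0 CPM in cKO and 122 and 137 CPM in ctr, and at MII it was 232, 252 and 282 CPM in cKO and 262, 391 and 321 CPM in ctr. These differences, -0.45 ± 0.17 and -0.34 ± 0.14, had adjusted p of 0.120 and 0.0931, and at MII the females overlapped. With limma voom they passed (0.0446 and 0.046), and with DESeq2 that at MII did (0.0297).

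Mdm4, on chr1:132959484-133030561 (-), was lower in cKO at all 3 polyA stages, and the difference passed at GV3h and MII. At GV3h it was 1414, 1528 and 1213 CPM in cKO and 2182, 2274 and 2006 CPM in ctr, with 9 of 11 cKO oocytes below the lowest ctr oocyte. Mdm4 fell by 0.64 ± 0.12 there (SE, log2, adjusted p = 0.00151, edgeR), and this call was kept under all 13 alternatives. At MII it was 2177, 2171 and 2672 CPM in cKO and 3467, 3184 and 3009 CPM in ctr, and it fell by 0.46 ± 0.12 (adjusted p = 0.0156, edgeR). The Mdm4 call at MII ended without V841 (adjusted p = 0.0636), V842 (0.0624) or V836 (0.0551). At GV the level was 1298 and 1480 CPM in cKO and 2077 and 1834 CPM in ctr (-0.49 ± 0.15, adjusted p = 0.0543), and the difference passed with DESeq2 (0.0253) and limma voom (0.0301).

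In RiboMinus GV oocytes both inhibitors were also lower in each cKO female. Mdm2 was 243 and 161.5 CPM in cKO against 278 and 275 CPM in ctr (-0.45 ± 0.24 SE, adjusted p = 0.426, edgeR). Mdm4 was 1941 and 1191 CPM against 2454 and 2572 CPM (-0.68 ± 0.27, adjusted p = 0.298), and it passed with limma voom (0.0174). Female V1131 was the lower of the cKO females for both genes. At MII the RiboMinus values did not show the inhibitors below ctr: Mdm2 was 214 and 207 CPM in cKO and 162 CPM in ctr, and Mdm4 was 2528 and 1993 CPM in cKO and 2247 CPM in ctr. Their differences there were 0.38 ± 0.30 and 0.01 ± 0.33, with adjusted p of 0.427 and 1.

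Cdkn1a, the p21 inhibitor of cyclin-dependent kinases, on chr17:29090976-29100727 (+), was at 3 CPM or less in every polyA female. Its summed level was 1.19 and 1.239 CPM in cKO and 0.681 and 0.752 CPM in ctr at GV. After 3 h it was 2.78, 2.53 and 1.55 CPM in cKO and 0.916, 1.26 and 0.528 CPM in ctr. At MII it was 2.80, 1.19 and 1.43 CPM in cKO and 1.39, 0.666 and 2.25 CPM in ctr. Single oocytes held 0 to 44 Cdkn1a reads in cKO and 0 to 17 in ctr. The log2 differences were 0.76 ± 0.66, 1.37 ± 0.55 and 0.34 ± 0.54 (SE), with adjusted p of 0.531, 0.0823 and 0.700 in edgeR. The GV3h difference passed with DESeq2 (adjusted p = 0.0425), only these 2 groups in the fit (0.036), library totals (0.0481) and oocytes as replicates (0.0144), and not with limma voom (0.161) or no filter (0.215). The Cdkn1a window with its exact pair of p53 decamers thus belonged to the gene with the lowest average polyA level of those tested. Chek2 was, however, lower in ctr MII eggs (0.915 against 1.43 CPM). An antisense gene, AC167363.2, shares 273 exonic bases with Cdkn1a (7.68%), and the strand setting of the counting is not given in the sources used here, so reads there cannot be assigned to either.

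In RiboMinus MII eggs Cdkn1a was 4.17 and 3.34 CPM (244 and 66 reads) in the eggs of cKO female V1166 and 0.504 and 0.768 CPM (14 and 20 reads) in those of V1167. All 3 ctr eggs held 0 reads, which allows up to 0.0599 CPM over the group (3 counts). Cdkn1a was at least 43.5-fold higher in the summed cKO eggs (2.60 CPM) than that limit, and the difference had an adjusted p of 0.0394 in edgeR. Egg V1166_1 held 244 of the 344 cKO reads, and without it the level was 1.36 CPM, at least 22.7-fold above the limit. Both bounds describe pooled eggs, with most reads from V1166, against 1 ctr female. Summed per female, Cdkn1a was 3.75 CPM in V1166 and 0.611 CPM in V1167, so V1167 alone lay closer to the limit. The females V1166 and V1167 differed from each other, and the call ended without egg V1166_1, the deepest RiboMinus library (adjusted p = 0.0595). At RiboMinus GV it was 1.03 and 0.914 CPM in cKO and 0.646 and 0.422 CPM in ctr (adjusted p = 0.724).

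Ccng1, cyclin G1, a p53 target that acts in feedback on Mdm2, lies on chr11:40748552-40755311 (-). It passed in 3 genotype comparisons with edgeR. At GV it was 7.94 and 12.5 CPM in cKO and 1.73 and 4.70 CPM in ctr (3.16-fold, log2 1.66 ± 0.53 SE, adjusted p = 0.0673, edgeR). The GV difference passed with DESeq2 (adjusted p = 0.0104), limma voom (0.00717), library totals (0.046), no filter on low counts (0.0373) and oocytes as replicates (0.000301). At GV3h its level was 10.9, 9.46 and 9.29 CPM in cKO and 5.68, 3.14 and 3.41 CPM in ctr. All 11 cKO oocytes then exceeded all 8 ctr oocytes (8.05 to 16.7 CPM against 1.19 to 7.93). That 2.44-fold difference (log2 1.28 ± 0.43 SE) had an adjusted p of 0.0399, which rose to 0.106 without V946, 0.0571 without V983, 0.0789 without V993, 0.140 without V982 and 0.131 without V995.

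At MII Ccng1 was 7.68, 7.39 and 5.67 CPM in cKO and 0.780, 1.96 and 2.66 CPM in ctr. It was 3.80-fold higher in cKO (log2 1.93 ± 0.45 SE, adjusted p = 0.00838, edgeR), and this was kept under all 13 alternatives, with log2 values of 1.59 to 2.32. In RiboMinus GV oocytes it was 16.2 and 19.3 CPM in cKO and 11.1 and 7.77 CPM in ctr (adjusted p = 0.286). In RiboMinus MII eggs it was 19.0, 20.9, 21.7 and 22.5 CPM in the 4 cKO eggs and 3.79, 6.66 and 5.48 CPM in the 3 ctr eggs. That difference was 3.65-fold (log2 1.87 ± 0.46 SE, adjusted p = 0.0458, edgeR). It no longer passed without egg V1166_1 (adjusted p = 0.0689) or with only these 2 groups in the fit (0.0574).

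Bbc3, which encodes the death-promoting protein PUMA, on chr7:16308393-16318205 (+), was close to absent from the counts. It had no read in 4 of the 6 polyA groups, 2 reads over the ctr GV oocytes and 8 reads over the cKO GV3h oocytes. In RiboMinus RNA it had 3 reads over the cKO GV oocytes and 0 in the other groups. The upper limit that a count of 0 allows was 0.0258 CPM over the polyA cKO GV oocytes and 0.0608 CPM over the polyA ctr MII eggs. A difference below such levels was not detectable at this depth.

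Bax, which permeabilises mitochondria, on chr7:45461697-45466898 (-), was higher in the cKO females at GV and GV3h without passing in edgeR. At GV3h the level was 27.5, 28.8 and 33.8 CPM in cKO and 20.2, 23.1 and 19.0 CPM in ctr, and 10 of 11 cKO oocytes exceeded the highest ctr oocyte (log2 difference 0.53 ± 0.23 SE, adjusted p = 0.107, edgeR). The GV3h difference passed with DESeq2 (adjusted p = 0.0378), limma voom (0.0069), library totals (0.0256), only these 2 groups in the fit (0.0273) and oocytes as replicates (0.00117). At GV it was 23.6 and 34.9 CPM in cKO and 21.1 and 22.1 CPM in ctr (adjusted p = 0.377), and it passed with limma voom (0.0485) and oocytes as replicates (0.00754). At MII both genotypes were low, at 5.97 to 7.95 CPM in cKO and 4.51 to 7.98 CPM in ctr. The RiboMinus values overlapped at GV, and at MII the ctr egg pool (15.6 CPM) lay above the cKO females (14.3 and 14.1 CPM). Bax shares 192 exonic bases with Gm45808 on its strand (12.2%), so its counts are uncertain by the reads that fall there.

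Chek2, on chr5:110839979-110874145 (+), the kinase that switches on p53 and p63 after strand breaks, was higher in cKO and passed at GV3h and MII in polyA RNA. At GV3h it was 9.40, 11.9 and 8.29 CPM in cKO and 3.57, 4.03 and 2.98 CPM in ctr, and all 11 cKO oocytes (7.51 to 15.1 CPM) lay above all 8 ctr oocytes (1.46 to 4.66 CPM). The difference was 2.80-fold (log2 1.49 ± 0.46 SE, adjusted p = 0.0275, edgeR). Its adjusted p became 0.0599 without V946, 0.0693 without V983, 0.0802 without V951, 0.0638 without V982 and 0.100 without V995. At MII Chek2 was 4.32, 2.99 and 3.98 CPM in cKO and 1.04, 1.54 and 0.166 CPM in ctr (3.93-fold, log2 1.98 ± 0.49, adjusted p = 0.0119). The ctr eggs held 51 Chek2 reads in all, 3 of the 8 held none, and with only the MII groups in the fit the adjusted p was 0.0695. At GV it was 8.54 and 10.2 CPM in cKO and 5.77 and 3.23 CPM in ctr (adjusted p = 0.255). In RiboMinus RNA it was 5.05 and 5.65 CPM in cKO against 4.35 and 3.02 CPM in ctr at GV (adjusted p = 0.644), and 2.99 and 4.60 CPM against 2.79 CPM at MII (0.641).

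Chek1, on chr9:36708482-36727065 (-), the kinase of the replication checkpoint, which also delays entry into meiotic division, was abundant and did not pass in any genotype comparison with edgeR on female sums. With oocytes as replicates, which ignores that they share a female, it passed at polyA GV (log2 -0.20, adjusted p = 0.0313). In polyA RNA it was 503 and 548 CPM in cKO against 615 and 646 CPM in ctr at GV, and 617, 542 and 565 CPM against 630.3, 634.7 and 626.6 CPM after 3 h. At MII it was 1481, 1270 and 1560 CPM in cKO and 1448, 1495 and 1354 CPM in ctr. The Chek1 log2 differences were -0.26 ± 0.13, -0.13 ± 0.10 and 0.01 ± 0.10 (SE), with adjusted p of 0.219, 0.370 and 0.989 in edgeR. In RiboMinus RNA they were -0.18 ± 0.24 at GV and -0.43 ± 0.29 at MII (adjusted p of 0.783 and 0.360).

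**Figure D3:**
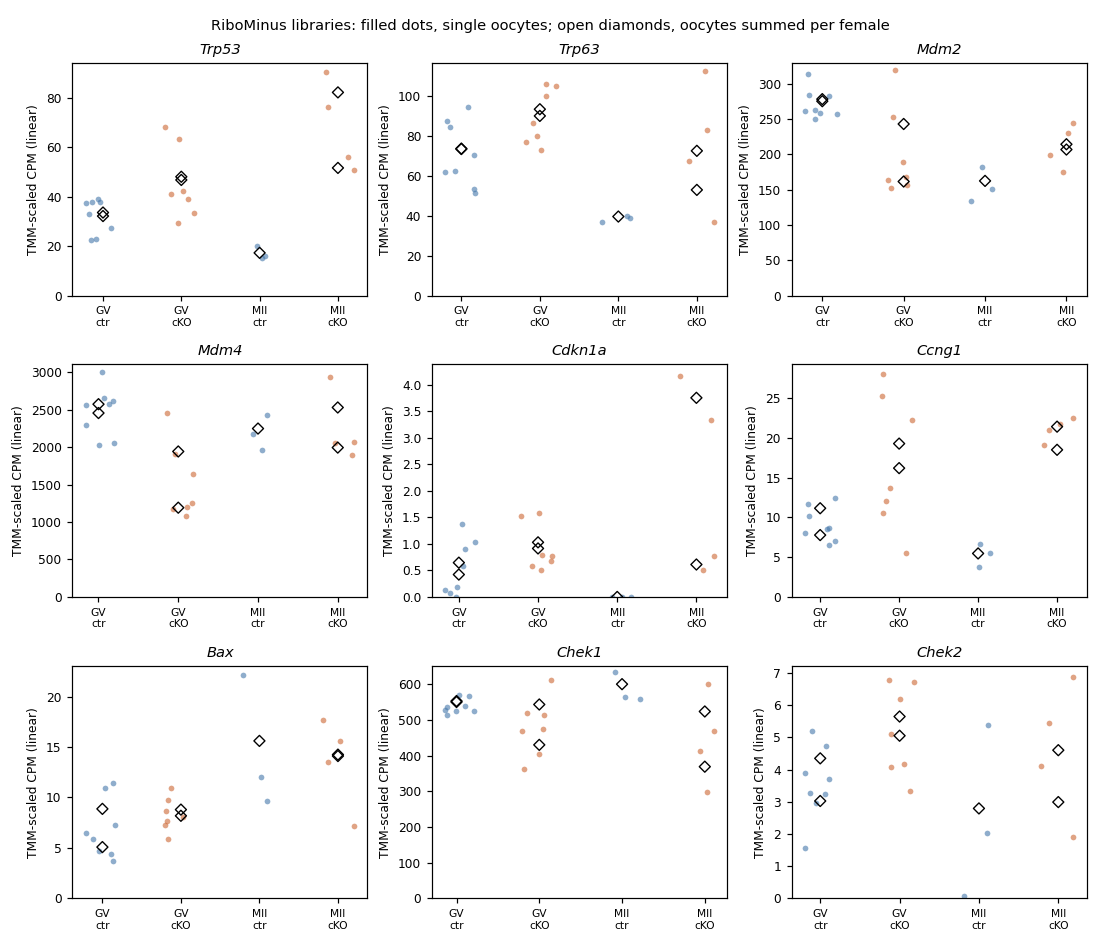
TMM-scaled CPM (linear axes from 0) of 9 genes in RiboMinus libraries of the 4 groups; filled dots are single oocytes (blue ctr, orange cKO) and open diamonds are oocytes summed per female. The 4 cKO MII eggs lie above the 3 ctr MII eggs, all of 1 female, for Trp53, Cdkn1a and Ccng1.

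Some markers of other cells moved with these groups. The 4 listed oviduct epithelium markers summed to 7.41 to 87.3 CPM in the RiboMinus cKO MII eggs and to 1.35 to 2.51 CPM in the ctr eggs. Most of that was Ovgp1 (6.80 to 84.3 CPM against 0 to 0.9003). Pax8 reached 3.09 CPM in cKO and was 0 in the 3 ctr eggs, Foxj1 reached 1.13 CPM in cKO and was 0 in 2 of the ctr eggs, and Epcam was 1.32 CPM or less in cKO and up to 2.51 CPM in ctr. Of 3 blood markers, Ptprc reached 14.3 CPM in 1 cKO egg, and Hba-a1 was 0 throughout. In polyA GV oocytes the median oviduct sum was 3.37 CPM in cKO and 1.6 CPM in ctr, with Ovgp1 medians of 1.63 and 0.170 CPM. In polyA GV3h oocytes, cultured like those at GV, the oviduct sum was 2.29 to 7.44 CPM (median 3.19) in cKO and 0.410 to 2.37 CPM (median 0.744) in ctr, with Ovgp1 at 0.520 to 4.88 CPM and 0 to 0.988 CPM. In polyA MII eggs it was 0 to 17.6 CPM (median 3.44) in cKO and 0.175 to 5.14 CPM (median 1.67) in ctr, and Ovgp1 was at 0 in 4 of 15 cKO and 7 of 8 ctr eggs. The 14 granulosa and cumulus markers summed to 69.6 to 106 CPM in cKO and 81.7 to 105 CPM in ctr at polyA GV, and to 68.6 to 122 CPM and 76.5 to 90.3 CPM after 3 h. Cyp19a1, Nr5a2 and Kitl were present in all 64 polyA libraries with the highest medians of the list (38.8, 33.5 and 11.5 CPM), so they weigh most in these sums. Foxl2, Amh and Amhr2 were at 0 in 53, 46 and 52 of the 64. The genes of this list differed in direction. The medians over oocytes of Inha, a secreted granulosa product, were 4.15 CPM in cKO and 0.296 CPM in ctr at GV and 1.02 and 0.271 CPM after 3 h. For Fshr, the receptor of follicle-stimulating hormone, they were 1.91 and 0 CPM, then 0.985 and 0 CPM, for Star 1.89 and 0.591 CPM, then 1.14 and 0.721 CPM, and for Kitl 13.5 and 5.49 CPM, then 12.6 and 9.36 CPM. The medians of Cyp19a1, aromatase, lay the other way, at 19.4 and 38.6 CPM, then 20.2 and 36.9 CPM, and Ptx3 was 0 in 63 of 64 polyA libraries. In RiboMinus MII eggs the same list summed to 74.9 to 110 CPM in cKO and 152 to 168 CPM in ctr, without overlap. Most of that was Nr5a2 (57.2 to 81.9 CPM in cKO and 119.7 to 138.2 CPM in ctr). Star lay the other way, at 1.32 to 7.09 CPM in cKO and 0 to 0.193 CPM in ctr, and the median of Fshr was 1.51 CPM in cKO and 0 in ctr. The part of such RNA in the genotype differences was not tested.

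From GV to MII the polyA levels of 6 of the 9 tested genes passed in both genotypes, each in 1 direction. Trp53, Mdm2, Mdm4 and Chek1 were higher at MII and Bax and Chek2 were lower, in ctr and in cKO alike. Of all genes, 42.5% passed in ctr (16.8% higher, 25.7% lower) and 44.7% in cKO (18.1% and 26.6%). Females of both stages did not overlap for 60.1% of all genes in ctr and 61.1% in cKO. In ctr Mdm2 rose 2.50-fold (log2 1.32 ± 0.16 SE, adjusted p = 6.64e-06, edgeR), from 122 and 137 CPM at GV to 262, 391 and 321 CPM at MII. Chek1 rose 2.27-fold (1.18 ± 0.12, adjusted p = 8.89e-07) in ctr and 2.73-fold (1.45 ± 0.12, 1.96e-07) in cKO. For both genes every MII egg lay above every GV oocyte, in each genotype. Mdm2 rose 2.68-fold in cKO (1.42 ± 0.16, adjusted p = 3.64e-06).

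Trp53 rose 2.40-fold in ctr (log2 1.26 ± 0.26 SE, adjusted p = 0.000833, edgeR) and 1.97-fold in cKO (0.98 ± 0.25, 0.00480). Mdm4 rose 1.65-fold in ctr (0.72 ± 0.14, 0.000498) and 1.68-fold in cKO (0.75 ± 0.14, 0.000346). The cKO call of Trp53 ended without V857 (adjusted p = 0.0937). It also ended when library totals replaced the TMM factors (0.131), and so did the Mdm4 calls in ctr (0.0891) and cKO (0.165). That scaling moved the median log2 change of all genes from -0.26 to -0.69 in ctr and from -0.33 to -0.86 in cKO, and in it the 6 genes kept their directions.

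Bax fell by 1.76 ± 0.26 (SE, log2, adjusted p = 4.93e-05, edgeR) in ctr, from 21.1 and 22.1 CPM at GV to 4.51, 6.66 and 7.98 CPM at MII. In cKO it fell by 2.04 ± 0.26 (adjusted p = 1.12e-05), and in both genotypes all MII eggs were below all GV oocytes. Chek2 fell by 2.23 ± 0.53 in ctr (adjusted p = 0.00275) and by 1.32 ± 0.49 in cKO (0.0392). The Chek2 fall in cKO no longer passed without V857 (adjusted p = 0.0746), V888 (0.135), V841 (0.0612), V842 (0.108) or V897 (0.0750). The ctr fall of Chek2 had an adjusted p of 0.0543 with only its 2 groups in the fit. Trp63, Cdkn1a and Ccng1 did not pass in either genotype, with adjusted p from 0.183 to 0.473.

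**Figure D4:**
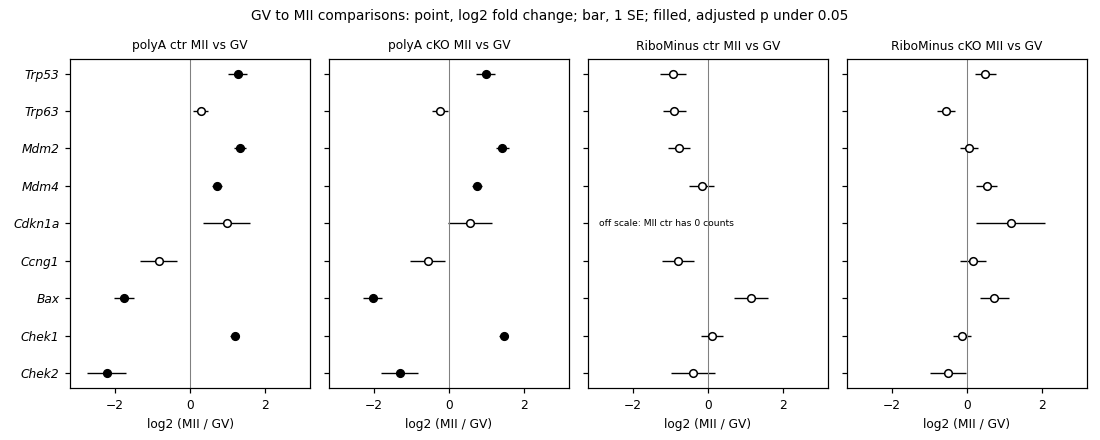
Log2 fold change of MII over GV for 9 genes in ctr and cKO, in polyA and RiboMinus libraries; points are edgeR estimates from counts summed per female, bars are 1 SE, and filled points passed an adjusted p of 0.05. Bax lies left of 0 in both polyA panels and right of 0 in both RiboMinus panels, and no RiboMinus point is filled.

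The RiboMinus libraries, which do not depend on the tail, gave other values for the same stages. None of the 9 genes passed with edgeR in ctr or cKO, beside 0.00787% (all higher) and 2.32% (0.61% higher, 1.71% lower) of all genes. Females did not overlap for 77.2% and 48.2% of all genes. Of the 9, 5 had an unadjusted p under 0.05 in ctr and 1 in cKO, and with DESeq2 1 gene (Cdkn1a) passed in ctr. With limma voom Mdm2 passed in ctr and Mdm4 in cKO. Bax was 8.87 and 5.08 CPM in the ctr GV females and 15.6 CPM at MII (log2 change 1.16 ± 0.45 SE, adjusted p = 0.281), where polyA RNA gave a fall. In cKO it was 8.80 and 8.18 CPM at GV and 14.3 and 14.1 CPM at MII (0.74 ± 0.38, adjusted p = 0.311). Chek1 was 553 and 551 CPM at GV and 601 CPM at MII in ctr (0.12 ± 0.29, adjusted p = 0.884), where polyA RNA gave a rise. Mdm2 was 278 and 275 CPM at GV and 162 CPM at MII in ctr (-0.77 ± 0.30, adjusted p = 0.287), again unlike the polyA rise. Trp53 was 32.2 and 33.6 CPM at GV and 17.3 CPM at MII in ctr (-0.93 ± 0.36, adjusted p = 0.277), and 48.1 and 46.8 CPM against 82.2 and 51.7 CPM in cKO (0.50 ± 0.28, adjusted p = 0.343). The difference between the library types was not tested.

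From GV to GV3h none of the 9 genes passed in ctr or cKO with edgeR, as none of all genes did (0%), and none of the 9 had an unadjusted p under 0.05. DESeq2 and limma voom called none of the 9 either. The log2 changes lay between -0.35 (Chek2) and 0.33 (Ccng1) in ctr and between -0.21 (Mdm2) and 0.91 (Cdkn1a) in cKO. Differences of the genotype effect between stages were tested as interactions, and none of the 9 passed in polyA RNA for GV3h or MII against GV (0% and 1.94% of all genes) or in RiboMinus RNA (0%). In polyA RNA none of the 9 had an unadjusted p under 0.05. In RiboMinus RNA 2 of the 9, Trp53 and Cdkn1a, did, and Cdkn1a passed with DESeq2. The Trp53 interaction was 1.43 ± 0.45 (SE, log2, adjusted p = 0.242, edgeR). For Cdkn1a the fitted value rests on the 0 reads of the ctr MII eggs.

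Over all 6 polyA groups the order of the levels, by the mean of the females, put MII first for Trp53, Mdm2, Mdm4 and Chek1. Trp53 ran from 82.1 CPM (cKO MII) and 58.2 (ctr MII) over 41.7 (cKO GV) and 40.1 (cKO GV3h) to 26.5 (ctr GV3h) and 24.3 (ctr GV). Only the step from cKO GV3h to ctr GV3h had females that did not overlap. Trp63 was ordered by genotype instead, with cKO GV (33.9 CPM), GV3h (32.5) and MII (28.6) above ctr MII (22.8), GV (18.8) and GV3h (15.0). The cKO and ctr females did not overlap at the step from cKO MII to ctr MII. Ccng1 also had its 3 cKO groups (10.2, 9.90 and 6.91 CPM) above its 3 ctr groups (4.08, 3.21 and 1.80), although the females of cKO MII and ctr GV3h overlapped. Bax and Chek2 were highest in cKO GV3h and cKO GV by these means, and lowest in ctr MII.

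Genes with the most similar log2 levels over the 16 polyA females were named by Pearson's r, as a description. These females share stages and genotypes, which alone can give high values. Kif20a (r = 0.966) and Tmem107 (0.964) were nearest to Trp53, Rc3h2 and Hnrnpab (both 0.935) to Trp63, Cebpg (0.992) and Mapk6 (0.991) to Mdm2, and Strn (0.983) to Mdm4. Zfp512 (0.948) was nearest to Ccng1, Rpl38 (0.983) to Bax, Rab14 (0.992) to Chek1 and Lctl (0.970) to Chek2. Cdkn1a, the lowest by that average, had the lowest best value (0.841, with Gm26815).

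Other regulators of p53 moved in both directions. Of 20 listed genes, all tested, 2 were higher and 2 lower in cKO at polyA GV. At GV3h 3 were higher and 5 lower, and at MII 2 and 2. The share called was 20%, 40% and 20%, beside 7.38%, 25.2% and 18.9% of all genes. In RiboMinus RNA none passed at GV, beside 0.0315% of all genes, and 1 was higher and 2 lower at MII (15%, beside 7.30% of all genes). The median log2 difference was 0.00, -0.06, 0.23, -0.01 and -0.02 in that order, beside 0.08, 0.07, 0.12, 0.04 and 0.25 over all genes. Yy1, a zinc finger protein that promotes p53 degradation, was 15.9 to 23.7 CPM in the cKO females and 4.30 to 4.40 CPM in ctr at GV3h (log2 2.24 ± 0.30 SE, adjusted p = 0.000167, edgeR). It was also higher in RiboMinus MII eggs (3.00 ± 0.53, adjusted p = 0.0211). Sirt1, a deacetylase of p53, was 43.5 to 78.8 CPM in cKO and 17.0 to 17.7 CPM in ctr at GV3h (1.89 ± 0.35, 0.00114). Trp53bp1, which marks double-strand breaks, was 98.2 to 118 CPM in cKO and 174 to 187 CPM in ctr at GV3h and fell by 0.76 ± 0.12 (0.000416). Hipk2, a kinase that activates p53, was 75.8 and 81.7 CPM in cKO and 222 CPM in ctr in RiboMinus MII eggs, and fell by 1.49 ± 0.24 (0.0173). These 5 calls were kept under every alternative run.

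Other targets of p53 also held calls in both directions. Of 30 listed targets 24 had enough polyA counts to be tested: 1 was higher and 1 lower at GV. At GV3h 2 were higher and 7 lower, and at MII 4 and 6. The medians were -0.10, -0.23 and -0.20. In RiboMinus RNA all 30 were tested, none passed at GV (0.0315% of all genes did) and 1 was higher at MII (3.33%, beside 7.30% of all genes), with medians of -0.07 and 0.16. The medians over all genes were 0.08, 0.07 and 0.12 in polyA RNA and 0.04 and 0.25 in RiboMinus RNA. The share called in polyA RNA was 8.33%, 37.5% and 41.7%, beside 7.38%, 25.2% and 18.9% of all genes. Ei24, induced by p53 and located in the endoplasmic reticulum, was 27.1 to 40.7 CPM in cKO and 14.8 to 16.9 CPM in ctr at GV3h (log2 1.20 ± 0.20 SE, adjusted p = 0.000656, edgeR), and 44.6 to 45.4 CPM against 9.65 to 12.5 CPM at MII (1.99 ± 0.21, 2.50e-05). Apaf1, the core of the apoptosome, was 4.11 to 5.26 CPM in cKO and 11.1 to 14.9 CPM in ctr at GV3h and fell by 1.43 ± 0.29 (0.00215). At MII it was 8.63 to 15.4 CPM against 18.1 to 33.7 CPM and fell by 1.21 ± 0.28 (0.00833). Rrm2b, a ribonucleotide reductase subunit for DNA repair, was 103 to 158 CPM in cKO and 228 to 261 CPM in ctr at GV3h and fell by 0.89 ± 0.15 (0.000631). Sulf2 fell by 1.16 ± 0.23 at GV3h (0.00200), and Trp53inp1, which takes part in the cell death response, fell by 0.94 ± 0.14 at MII (0.000554). In RiboMinus MII eggs Ddb2, a sensor of ultraviolet damage, was 70.0 and 70.6 CPM in cKO and 18.5 CPM in ctr (1.92 ± 0.31, 0.0165). These calls were kept under every alternative run.

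Of 25 genes of damage sensing and checkpoint, all tested, 2 were higher and none lower at polyA GV. At GV3h 4 were higher and 5 lower, and at MII 5 and 3. The share called was 8%, 36% and 32%, beside 7.38%, 25.2% and 18.9% of all genes. In RiboMinus RNA none passed at GV, beside 0.0315% of all genes, and 1 was lower at MII (4%, beside 7.30% of all genes). The medians were 0.03, -0.02, 0.07, 0.07 and -0.04, beside 0.08, 0.07, 0.12, 0.04 and 0.25 over all genes. Hormad1, a meiotic chromosome axis protein that keeps breaks from being repaired off the sister, was 3.998 to 6.695 CPM in cKO and 0.269 to 0.624 CPM in ctr at GV3h (log2 3.49 ± 0.80 SE, adjusted p = 0.00498, edgeR), and 6.82 to 24.0 CPM against 0.260 to 1.498 CPM at MII (3.94 ± 0.77, 0.00270). Csnk1d, a casein kinase 1 of the family that switches on p63, was 42.0 to 62.3 CPM in cKO and 15.4 to 17.6 CPM in ctr at GV3h (1.72 ± 0.24, 0.000234), and it was higher at MII as well (1.09 ± 0.24, 0.00612). Brca2, which acts in the repair of breaks, fell by 0.82 ± 0.15 at GV3h (0.00138), and Rnf168, a ubiquitin ligase at breaks, fell by 0.98 ± 0.17 at GV3h (0.000861) and by 0.84 ± 0.17 at MII (0.00353). Rad50 was 57.5 and 98.5 CPM in cKO and 378 CPM in ctr in RiboMinus MII eggs and fell by 2.27 ± 0.32 (0.0134). These calls were kept under every alternative run.

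The Bcl-2 family and its partners held 21 tested genes of 24 in polyA RNA. In cKO 2 were higher and 1 lower at GV. At GV3h 7 were higher and 2 lower, and at MII 3 and 3, with medians of 0.29, 0.51 and -0.27, beside 0.08, 0.07 and 0.12 over all genes. The share called was 14.3%, 42.9% and 28.6%, beside 7.38%, 25.2% and 18.9% of all genes. Of 23 tested in RiboMinus RNA none passed at GV, beside 0.0315% of all genes. At MII 1 was higher and 3 lower (17.4%, beside 7.30% of all genes), with medians of 0.20 and 0.74, beside 0.04 and 0.25. Mcl1, a survival protein, was 17.0 to 41.5 CPM in cKO and 1.92 to 4.18 CPM in ctr at GV3h (log2 3.22 ± 0.44 SE, adjusted p = 0.000171, edgeR). Bcl2l10, an oocyte-rich survival member of the family, was 877 to 1079 CPM in cKO and 1775 to 2142 CPM in ctr at GV3h and fell by 1.06 ± 0.14 (0.000135). At MII Birc5, survivin, was 258.5 to 420 CPM in cKO and 103 to 145 CPM in ctr (1.40 ± 0.21, 0.000419). In RiboMinus eggs of that stage Birc5 went the other way, at 362 and 381.5 CPM in cKO and 781 CPM in ctr (-1.07 ± 0.24, 0.0365), a call that 3 alternatives ended. Diablo, which releases caspases from inhibition, was 50.1 to 62.8 CPM in cKO and 77.2 to 116 CPM in ctr in polyA MII eggs and fell by 0.79 ± 0.18 (0.00768). In polyA GV3h oocytes Diablo was higher in cKO, at 65.9 to 106.5 CPM against 53.3 to 59.4 CPM (0.68 ± 0.18, 0.0137). Bik, a death promoter, was 1.84 to 2.50 CPM in cKO and 3.74 to 39.6 CPM in ctr in polyA MII eggs and fell by 3.18 ± 0.72 (0.00694). Casp8, the initiator caspase of death receptors, was 14.2 and 19.6 CPM in cKO and 64.5 CPM in ctr RiboMinus MII eggs and fell by 1.93 ± 0.39 (0.0294). Apart from that of Birc5 in RiboMinus RNA and that of Diablo at GV3h, for which the alternatives were not compared, these calls were kept under every alternative run. Of the 62 calls that the naming rule picked from the 4 lists, 27 were kept under every alternative. None of the 11 at polyA GV was, and no call turned its direction.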

How the data were processed

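Count tables of 86 single-oocyte libraries were used, and 22 rRNA libraries of the series were not. The values are whole-number read counts per gene as deposited by the authors, on mm10 per the submitters' processing notes, which list cutadapt 2.5, FastQC 0.11.8, STAR 2.7.2a, SAMtools 1.9, HTSeq 0.9.1, R 3.5.1 and DESeq2 1.24.0. The annotation release, the strand setting and any duplicate removal are not given in the sources used here. Rows without a gene were left out: no feature took 5.85% to 14.2% of polyA and 8.34% to 12.4% of RiboMinus reads, and ambiguous reads 2.07% to 3.19%. Counts were summed per female (16 polyA, 7 RiboMinus). One edgeR 4.0.16 quasi-likelihood fit per library type held all its groups, with filterByExpr (minimum count 10), TMM and Benjamini-Hochberg adjustment over 19242 polyA or 25425 RiboMinus genes. It called an adjusted p under 0.05. The lone ctr female of RiboMinus MII was assumed to vary like the other groups. The 14 comparisons were 5 of genotype, 6 of stage and 3 interactions. Alternatives used DESeq2 1.42.0, limma 3.58.1, other scaling, no filter, oocytes as replicates, fewer groups and each female left out. The lone ctr female of RiboMinus MII could not be left out, so no call there was tried without her. No libraries of a group agreed within sampling noise. Floors of 3 counts cover counting error only, since reads carry no molecular identifiers. Symbols (55394 of 55573 IDs) and coordinates came from GENCODE M21. The fits were tested on simulated data. Listed genes were named where called, at an average log2 CPM of at least 1, as the 3 largest changes in each direction per list and genotype comparison, and the text gives those kept under every alternative, and calls of Birc5 and Diablo in the other direction, chosen after their values were seen. The genes and lists were chosen with earlier results of these data known.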

Additional observations from a re-analysis of the deposited data

How the results depend on the processing

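No paired analysis was possible because no female gave oocytes to both groups of a comparison. No call of the 9 tested genes and none of the 62 named list calls changed direction under the alternatives run for them. Of the 9 tested genes, the number called at polyA GV (1 as reported) was 4 with DESeq2, 0 with only the compared groups, 3 with library totals, 6 with limma voom, 2 without the filter and 8 with oocytes as replicates. It was 0 to 1 with a female left out. At GV3h (5 as reported) it was 8 with DESeq2, only the compared groups, library totals or oocytes as replicates, and 3 to 4 with a female left out. At polyA MII (3 as reported) it was 5 with limma voom or oocytes as replicates. Chek2 no longer passed at polyA MII with only the compared groups, nor did Mdm4 without V841, V842 or V836. In RiboMinus GV (0 as reported) it was 1 with limma voom and 3 with oocytes as replicates. In RiboMinus MII (3 as reported) it was 1 without egg V1166_1, left out because its library was the deepest, a choice made after seeing the data. From GV to MII in RiboMinus ctr (0 as reported) it was 1 with DESeq2, limma voom or no filter, and 5 with only the compared groups or oocytes as replicates. In RiboMinus cKO (0 as reported) it was 1 with limma voom. For the MII interaction (0 as reported) it was 1 in polyA with oocytes as replicates, and in RiboMinus 1 with DESeq2 or no filter and 3 with oocytes as replicates. The cause was not tested. Oocytes as replicates ignore that oocytes share a female. Over all genes the calls moved too: 1420 at polyA GV became 1 with only the compared groups, 110 without V889, 345 without V856, 675 without V857 and 5908 with oocytes as replicates, 4849 at GV3h became 2976 without V993, 3168 without V951, 3192 without V982 and 7556 with oocytes as replicates, 8 in RiboMinus GV became 2 without V1132, 1184 without V1126 and 5774 with oocytes as replicates, and 1857 in RiboMinus MII became 895 without V1166_1, 3746 without V1167 and 5580 with DESeq2. For the stage and interaction comparisons whose count moved by over 1.5 times, 0 from GV to GV3h became 66 (ctr) and 86 (cKO) with oocytes as replicates, 2 in RiboMinus ctr became 5732 with only the compared groups, 591 in RiboMinus cKO became 0 with only the compared groups, 6 without V1166, 33 without V1131, 1879 without V1167 and 3795 with limma voom, 373 for the polyA MII interaction became 13 with only the compared groups, 61 without V889, 122 without V857, 178 without V856, 218 without V842, 1251 without V888, 1123 with DESeq2 and 2287 with oocytes as replicates, 0 for the GV3h interaction became 28 without the filter, and 0 for the RiboMinus interaction became 2837 with oocytes as replicates. Scaling by library totals changed what share of the calls was higher. In polyA RNA 47.0% became 74.2% for GV, 49.5% became 70.5% for GV3h, 39.5% became 21.4% for ctr MII against GV, 40.5% became 20% for cKO, and 81.8% became 68.9% for the MII interaction. In RiboMinus MII 49.5% became 65.9%. Dates of collection and library preparation are not given in the sources used here, so they cannot be told apart from the groups. Depth limits Bbc3, Cdkn1a and the MII level of Chek2.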
